A study of Homo sapiens with 7 samples.

Results

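The genes described here are 41 very long protein-coding genes, fixed by name and known for their great genomic span. The list was chosen with earlier results of these data known, so setting it beside all genes is a description. Each name matched 1 row of the 60234 genes in the deposited expression table. Their annotated spans ran from 429 kb (MSI2) to 2298 kb (PTPRD), with a median of 833 kb, so the label fits the annotation for every gene. Exons covered between 0.362% (FHIT) and 6.29% (TCF4) of the span. A mean of at least 1 TPM (an abundance corrected for transcript length and scaled to the same total in each library) over 6 libraries was reached by 39 of the 41. DIAPH2 lay just inside that limit with a mean of 1.18 TPM. NAALADL2, at 0.909 TPM, and ZBTB20, at 0.493 TPM, lay outside it.

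All RNA came from cardiomyocytes grown from WTC-11, an established human induced pluripotent stem cell line, and matured for 35 days. Cultures then received 2 uM of an antisense oligonucleotide (ASO), a small designed strand that binds a matching RNA, for 96 h. The scrambled ASO group had 3 libraries and the group given an ASO against MYH7B had 4. The labels name a single stem cell line and do not say whether libraries of a group came from separate differentiations, so p-values measure the spread between these libraries, which may be technical.

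A very long gene is mostly intron. RNA polymerase takes hours to cross it, the introns are removed while transcription goes on, and the finished message is far shorter than the gene. Many such genes encode adhesion, scaffold and signalling proteins that are active in nerve and muscle, and several, such as FHIT and WWOX, lie in chromosome regions that break easily when DNA replication is slowed.

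The targeted gene, MYH7B on chromosome 20, had 23.0, 36.5 and 25.1 TPM with the scrambled ASO and 9.30, 5.65 and 6.31 TPM in MYH7B ASO replicates 2 to 4. Its log2 fold change was -1.85 (limma adjusted p = 0.0109, and 0.0618 without MYH7B ASO replicate 4). The deposited column of MYH7B ASO replicate 1 is out of row register, so comparisons use the other 6 libraries. After reordering, that library stood apart, with 17.2% of its TPM in mitochondrially encoded genes against 27.4% to 33.6% in the other 6. Its RN7SL1 and RN7SL2 share was 14.3%, against 0.901% to 6.17%. Its values are given below as a separate reading.

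The very long genes were mostly lower with the MYH7B ASO. TRAPPC9, EXOC4, SMYD3, FTO and PARD3 fell, to between 12.9% and 41.9% of their scrambled ASO means. No member rose among the 39 tested. A further 20 members were lower in every MYH7B ASO library than in any scrambled ASO library without passing the test. AUTS2, ATXN1, FOXP1 and CAMTA1 had estimates slightly above 0.

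Genes were tested with limma on log2(TPM + 1), a scale on which changes of weakly expressed genes look smaller than they are, and are referred to as called at an adjusted p under 0.05 over all 15988 genes tested. Of the 39 tested members, 5 were called lower, which is 12.8%. Over all tested genes 1.48% were called lower and 0.181% higher. The 3 MYH7B ASO libraries lay below the 3 scrambled ASO libraries for 25 of the 39 members, against 14.1% of all tested genes, and above them for none, against 7.11%. At an unadjusted p under 0.05, 25 members were lower and none higher, against 10.6% and 4.67% of all tested genes. The median log2 fold change was -0.87 for the tested members and -0.04 for all tested genes. Estimates were below 0 for 35 of the 39 members and 54.8% of all genes. A filter on the mean level can keep a gene only through the group where it is high. CDH13, PARD3B, DIAPH2, PRKCA, FHIT, MACROD2 and DPYD were kept in this way, with MYH7B ASO means below 1 TPM. All of them are among the 25 members whose MYH7B ASO libraries lay below the controls, so that count depends in part on the filter. The matching share of all genes with no minimum was not counted. With no minimum, 36 of all 41 members had an estimate below 0, their median was again -0.87, and 3 (TRAPPC9, EXOC4 and FTO) were called among 32966 genes. Without scrambled ASO replicate 1, scrambled ASO replicate 3 or MYH7B ASO replicate 4, the same 3 members were called.

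**Figure D1:**
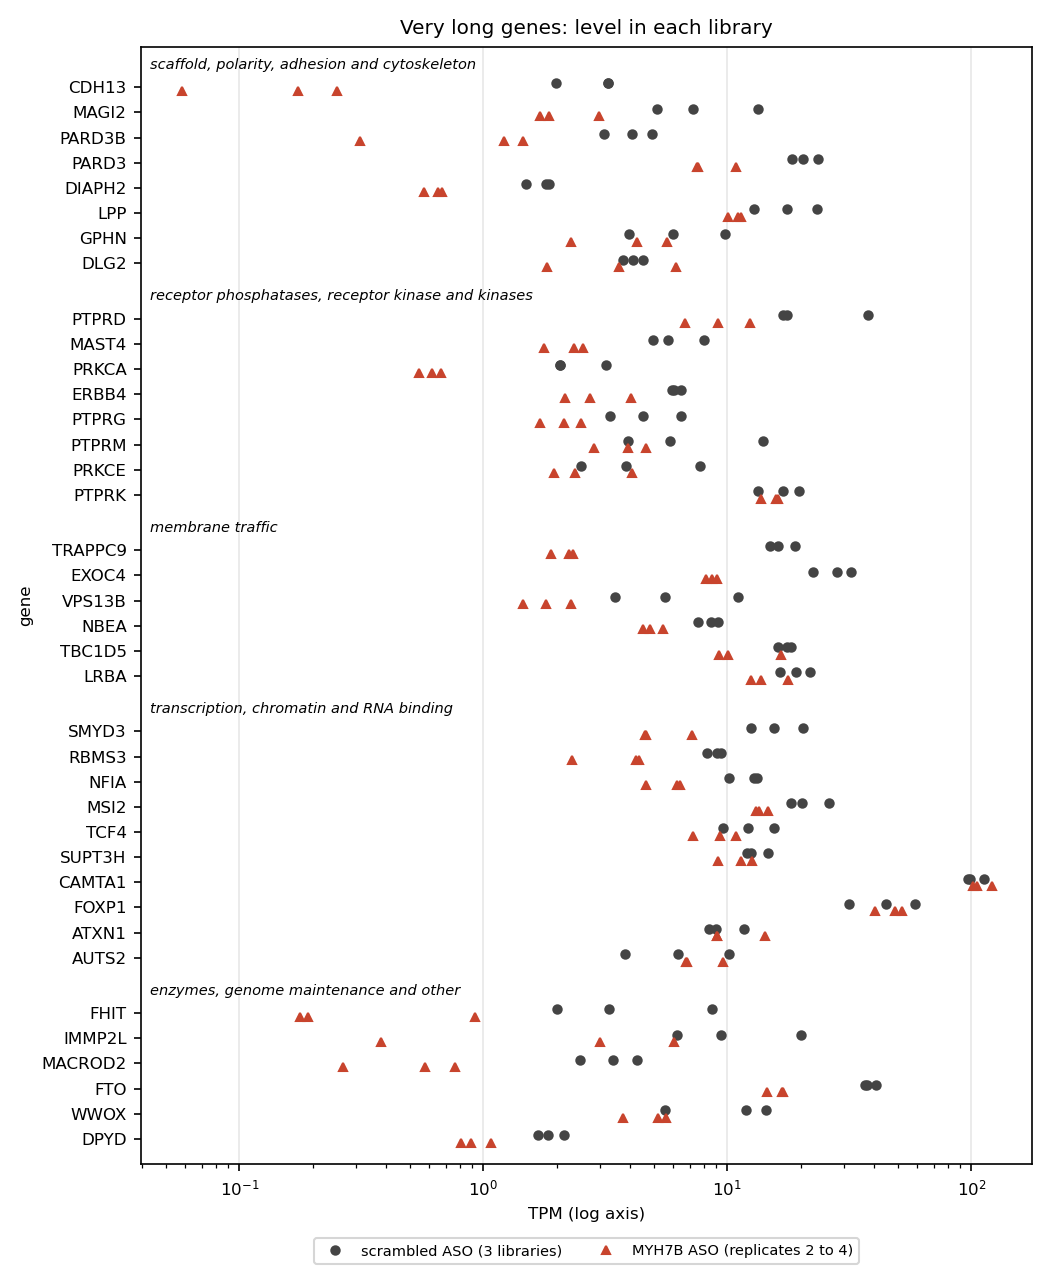
Level of the tested very long genes reported by name in 6 libraries, in TPM on a log axis, grouped by role. Dark circles are the 3 scrambled ASO libraries and red triangles MYH7B ASO replicates 2 to 4. The triangles of TRAPPC9, EXOC4 and FTO lie to the left of every circle of the same gene, while those of CAMTA1, near 100 TPM, are mixed with the circles.

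Of 6 measured genes of membrane traffic, TRAPPC9 and EXOC4 fell and 4 did not pass the test. TRAPPC9 (ENSG00000167632.16, chromosome 8, 139727725 to 140458579 on GRCh38, minus strand, 731 kb) encodes a subunit of the TRAPP tethering complex. TRAPPC9 measured 15.0, 18.9 and 16.2 TPM with the scrambled ASO and 1.89, 2.32 and 2.24 TPM in MYH7B ASO replicates 2 to 4. The groups were far apart, and the mean fell from 16.7 ± 1.97 to 2.15 ± 0.229 TPM (SD, n = 3 each). Its log2 fold change of -2.49 (SE 0.18, limma adjusted p = 0.00161) was the lowest among the members.

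EXOC4 (ENSG00000131558.15, chromosome 7, 133253073 to 134066589, plus strand, 814 kb) encodes a subunit of the exocyst, which tethers vesicles to the plasma membrane. Its 3 scrambled ASO libraries had 32.2, 28.1 and 22.4 TPM, and the MYH7B ASO libraries 8.17, 9.08 and 8.66 TPM. All 3 treated libraries lay within 1 TPM of each other and well below the controls. EXOC4 fell by 1.55 on the log2 scale (SE 0.18, limma adjusted p = 0.00643).

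VPS13B, a lipid transfer protein of the Golgi, had 11.1, 3.47 and 5.56 TPM with the scrambled ASO and 1.46, 1.80 and 2.29 TPM with the MYH7B ASO. The groups did not overlap, but the controls were scattered and the gene did not pass (log2 fold change -1.32, limma adjusted p = 0.137). NBEA, a BEACH domain protein of vesicle sorting, had 7.60, 8.55 and 9.19 TPM against 4.82, 5.46 and 4.50 TPM. Its groups were also apart (log2 fold change -0.67, limma adjusted p = 0.125). LRBA, the close relative of NBEA, had 16.4, 21.8 and 19.1 TPM against 13.7, 17.7 and 12.5 TPM, and its groups overlapped. TBC1D5, a regulator of RAB GTPases at the retromer, had 16.2, 18.2 and 17.5 TPM against 16.6, 9.24 and 10.1 TPM. Only MYH7B ASO replicate 2 of TBC1D5 reached the control range. TBC1D5 shares exonic bases with SATB1 on the same strand, which had a mean of 13.9 TPM and a log2 fold change of 0.00. The 95% confidence intervals of the log2 fold change ran from -0.80 to 0.06 for LRBA and from -1.05 to -0.02 for TBC1D5.

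Among 8 genes of scaffolds, cell polarity, adhesion and the cytoskeleton, PARD3 fell and 7 did not pass. PARD3 (ENSG00000148498.16, chromosome 10, 34109560 to 34815325, minus strand, 706 kb) is the scaffold of the complex that sets cell polarity and places tight junctions. It had 18.4, 23.6 and 20.5 TPM with the scrambled ASO and 10.8, 7.51 and 7.61 TPM with the MYH7B ASO. The groups did not overlap, and MYH7B ASO replicate 2 was the highest of its group. The log2 fold change was -1.19 (SE 0.19, limma adjusted p = 0.0248). The call for PARD3 was kept without MYH7B ASO replicate 2 and lost without any other single library (limma adjusted p 0.0580, 0.0751 and 0.0698 without scrambled ASO replicates 1, 2 and 3, 0.0959 and 0.119 without MYH7B ASO replicates 3 and 4).

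PARD3B, its paralog, had 3.12, 4.91 and 4.07 TPM against 0.313, 1.22 and 1.45 TPM, so each treated library lay below each control (log2 fold change -1.37, limma adjusted p = 0.0987). CDH13, a cadherin held in the membrane by a lipid anchor, had 3.24, 1.99 and 3.24 TPM against 0.173, 0.058 and 0.250 TPM. The mean of CDH13 with the MYH7B ASO was 5.68% of that with the scrambled ASO, the lowest share among the tested members. With its low level and the pseudocount of 1, its log2 fold change came to -1.71, with a limma adjusted p of 0.0656. MAGI2, a membrane-associated guanylate kinase scaffold, had 13.3, 7.25 and 5.17 TPM against 2.99, 1.71 and 1.85 TPM (log2 fold change -1.52, limma adjusted p = 0.0709). MAGI2 shares exonic bases with MAGI2-AS3 on the opposite strand, which had a mean of 32.0 TPM and a log2 fold change of -0.26. The use of strand in counting is not given in the sources used here, so reads of the 2 genes cannot be told apart there. Exonic bases are shared with a gene of at least 1 TPM by 6 members in all, the others being TBC1D5, ZBTB20, LPP (LPP-AS2, 1.26 TPM), LRBA (MAB21L2, 3.31 TPM) and FOXP1 (AC097634.4, 1.10 TPM). How the counting divided reads in shared bases is not given in the sources used here.

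DIAPH2, a formin that builds actin filaments, had 1.49, 1.81 and 1.86 TPM against 0.571, 0.652 and 0.674 TPM. LPP, a zyxin relative at focal adhesions, had 17.6, 23.2 and 12.9 TPM against 10.1, 11.4 and 11.1 TPM. Neither gene's groups overlapped, and neither passed (limma adjusted p = 0.354 and 0.219). GPHN, the scaffold of inhibitory synapses and an enzyme of molybdenum cofactor synthesis, had 9.75, 3.94 and 6.01 TPM against 2.28, 5.66 and 4.28 TPM. DLG2, another membrane-associated guanylate kinase and at 2173 kb the second longest member, had 4.52, 4.09 and 3.73 TPM against 1.82, 6.17 and 3.60 TPM. The groups of GPHN and DLG2 overlapped, and the treated libraries of DLG2 lay on both sides of the controls. The 95% confidence interval of the log2 fold change was -1.38 to 0.25 for GPHN and -0.94 to 0.60 for DLG2.

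None of the 8 receptor phosphatases and kinases passed the test, although all 8 had estimates below 0 and 5 had groups that did not overlap. The lowest estimate was that of PTPRD (2298 kb), a receptor tyrosine phosphatase of neurons, with 16.9, 37.6 and 17.6 TPM against 12.4, 6.72 and 9.13 TPM (log2 fold change -1.20, limma adjusted p = 0.133). Its second scrambled ASO library was far above the other 2. PTPRG, of the same family, had 3.31, 6.47 and 4.49 TPM against 1.71, 2.52 and 2.15 TPM (log2 fold change -0.85). PTPRM, which binds itself between neighbouring cells, had 3.92, 14.0 and 5.80 TPM against 4.63, 2.84 and 3.92 TPM, and its groups overlapped. PTPRK, with the same kind of adhesive ectodomain, had 13.4, 19.6 and 16.9 TPM against 16.1, 15.9 and 13.8 TPM. The interval for PTPRK was -0.52 to 0.31, so a fall of the size seen for PARD3 lay outside it.

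ERBB4, the neuregulin receptor of heart muscle cells, had 5.93, 6.05 and 6.43 TPM with the scrambled ASO and 4.01, 2.16 and 2.73 TPM with the MYH7B ASO. The controls agreed closely, and every treated library was lower (log2 fold change -0.87, SE 0.23, limma adjusted p = 0.125). PRKCA, the protein kinase C form that dampens contractility, had 3.19, 2.07 and 2.07 TPM against 0.672, 0.543 and 0.613 TPM. The PRKCA mean went from 2.44 ± 0.648 to 0.610 ± 0.0645 TPM (SD, n = 3 each) and did not pass at this low level (log2 fold change -1.08, limma adjusted p = 0.168). PRKCE, another protein kinase C form, had 2.51, 7.73 and 3.83 TPM against 4.07, 2.38 and 1.95 TPM, with groups that overlapped. MAST4, a kinase that binds microtubules, had 8.04, 4.94 and 5.69 TPM against 1.78, 2.57 and 2.36 TPM. The groups of MAST4 were apart (log2 fold change -1.14, limma adjusted p = 0.0698).

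Members that act in transcription, on chromatin or on RNA were the most divided. Of 10 tested, 1 fell, 9 did not pass, and 4 of the 10 had estimates above 0. Their median log2 fold change was -0.31, against -0.96, -0.86, -1.0 and -1.51 for the scaffold, kinase and phosphatase, traffic, and enzyme groups. These groups were not tested against each other. SMYD3 (ENSG00000185420.19, chromosome 1, 245749342 to 246507312, minus strand, 758 kb), a lysine methyltransferase, had 20.4, 12.5 and 15.5 TPM with the scrambled ASO. With the MYH7B ASO it had 4.60, 7.15 and 4.64 TPM, below every control. It fell by 1.40 on the log2 scale (SE 0.24, limma adjusted p = 0.0296). The SMYD3 call was lost without scrambled ASO replicate 1 or 3 (limma adjusted p 0.0841 and 0.0790) and without MYH7B ASO replicate 2 or 4 (0.108 and 0.133).

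RBMS3, an RNA-binding protein, had 9.11, 8.29 and 9.39 TPM against 2.30, 4.34 and 4.23 TPM (log2 fold change -1.13, limma adjusted p = 0.0604). NFIA, a nuclear factor I transcription factor, had 10.2, 12.9 and 13.2 TPM against 4.66, 6.42 and 6.21 TPM (log2 fold change -0.96, limma adjusted p = 0.0543). MSI2, an RNA-binding regulator of translation, had 26.2, 18.3 and 20.2 TPM against 14.7, 13.5 and 13.1 TPM (log2 fold change -0.60, limma adjusted p = 0.157). For these 3 genes each treated library was below each control, and none passed.

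TCF4, a basic helix-loop-helix transcription factor, had 15.5, 9.58 and 12.1 TPM against 9.37, 10.9 and 7.26 TPM. SUPT3H, the human relative of a yeast SAGA complex subunit, had 12, 12.5 and 14.7 TPM against 12.6, 9.12 and 11.4 TPM. Both pairs of groups overlapped, with intervals of -0.90 to 0.12 for TCF4 and -0.64 to 0.18 for SUPT3H. CAMTA1 (chromosome 1, 6785324 to 7769706, plus strand, 984 kb), a calmodulin-binding transcription activator, had the highest level of all members. Its values were 97.1, 113 and 98.9 TPM with the scrambled ASO and 106, 121 and 102 TPM with the MYH7B ASO. The groups were mixed, and the interval of the log2 fold change, -0.22 to 0.39, was the narrowest among members with an estimate above 0.

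FOXP1, a forkhead repressor of cardiac development, had 44.7, 58.6 and 31.5 TPM against 51.8, 40.4 and 48.6 TPM, so the treated libraries sat inside the control range. ATXN1, a chromatin-associated repressor, had 8.37, 11.7 and 9.01 TPM against 9.06, 9.07 and 14.3 TPM. AUTS2, which joins a Polycomb-type complex, had 3.79, 10.2 and 6.27 TPM against 6.82, 6.78 and 9.57 TPM. The estimates of these 3 genes were 0.10, 0.13 and 0.24 with intervals that reached 0.62, 0.64 and 0.95. Their sign, and that of CAMTA1, turned under at least 1 alternative, as given in the closing section. ZBTB20, a zinc finger repressor that was not tested, had 0.391, 0.142 and 0.142 TPM against 0.474, 0.625 and 1.18 TPM. It was the only member with every treated library above every control. ZBTB20 shares exonic bases with AC093010.3 on the same strand, which had a mean of 1.62 TPM, above the 0.493 TPM of ZBTB20.

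Of the 7 tested enzymes and genome maintenance genes, FTO fell and 6 did not pass, and 6 of the 7 had groups that did not overlap. FTO (ENSG00000140718.21, chromosome 16, 53701692 to 54158512, plus strand, 457 kb) removes methyl groups from adenosine in RNA. It had 37.5, 40.7 and 36.7 TPM with the scrambled ASO and 14.5, 16.7 and 16.9 TPM with the MYH7B ASO. Both groups were tight, and the mean fell from 38.3 ± 2.10 to 16.0 ± 1.33 TPM (SD, n = 3 each). Its log2 fold change was -1.21 (SE 0.14, limma adjusted p = 0.00817). TRAPPC9, EXOC4 and FTO were called whichever of the 6 libraries was left out.

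FHIT, a hydrolase of dinucleoside polyphosphates, had 2.01, 8.63 and 3.28 TPM against 0.177, 0.191 and 0.923 TPM. MACROD2, which removes ADP-ribose from proteins, had 4.26, 3.39 and 2.48 TPM against 0.574, 0.265 and 0.763 TPM. The treated means of FHIT and MACROD2 were 9.27% and 15.8% of the control means (limma adjusted p = 0.114 and 0.0709). The share for FHIT was 16.3% without scrambled ASO replicate 2 and 3.97% without MYH7B ASO replicate 4.

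IMMP2L, a relative of a mitochondrial inner membrane peptidase, had 20.0, 6.23 and 9.46 TPM against 3.0, 0.382 and 6.07 TPM. The IMMP2L groups touched closely, with 6.23 TPM as the lowest control and 6.07 TPM as the highest treated library. WWOX, an oxidoreductase with WW domains, had 5.53, 14.4 and 11.9 TPM against 5.20, 5.62 and 3.72 TPM, and its groups overlapped by a small margin. DPYD, the first enzyme of pyrimidine breakdown, had 1.84, 2.14 and 1.68 TPM against 0.886, 0.811 and 1.07 TPM. None of these 3 passed (limma adjusted p = 0.206, 0.230 and 0.432). NAALADL2, a peptidase-like gene that was not tested, had 3.36, 0.607 and 0.902 TPM against 0.199, 0.189 and 0.200 TPM. Its treated libraries were all below the controls.

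**Figure D2:**
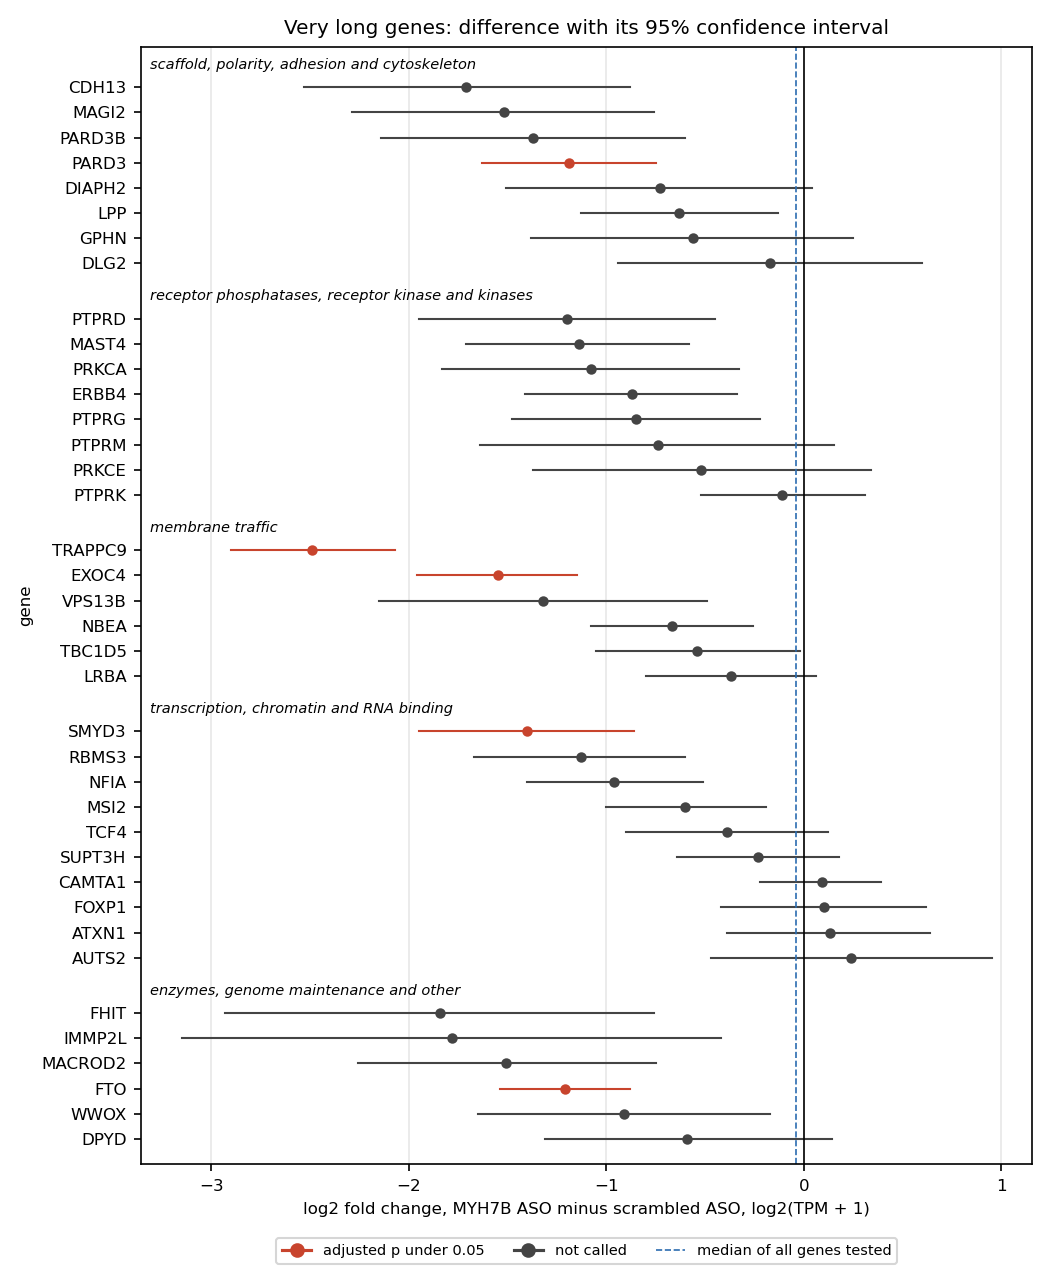
Log2 fold change of the tested very long genes reported by name, on the log2(TPM + 1) scale, MYH7B ASO minus scrambled ASO, with its 95% confidence interval from limma, 3 libraries in each group. Red marks the 5 called genes, from TRAPPC9 at -2.49 to PARD3 at -1.19, the solid line 0 and the dashed line the median of all tested genes (-0.04).

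Where transcription of these genes starts was read from RefSeq on GRCh38.p14, in which a start was matched for 37 of the 41 members. No entry was matched for TRAPPC9 and PARD3, which fell, or for CDH13 and VPS13B. These genes are absent from the counts of starts and windows below. A single start is listed for 16 of the 37, EXOC4, FTO and ERBB4 among them. The others have up to 10 (TCF4). For some members even the outermost listed start lies well inside the annotated span. It is 729 kb from the gene end for RBMS3 (span 1436 kb), 585 kb for TBC1D5 (1288 kb), 951 kb for NAALADL2 (1372 kb) and 386 kb for NFIA (598 kb). The innermost listed start lies 65 kb from the gene end for CAMTA1 (span 984 kb) and 112 kb for FOXP1 (631 kb). Inner starts are also listed for members with lower estimates. SMYD3, which fell, has 2 listed starts, the innermost 239 kb from the gene end, and MAST4 (log2 fold change -1.14) and NBEA (-0.67) have innermost starts at 165 kb and 196 kb. AUTS2 and PTPRK, also with estimates above -0.25, have a single listed start at the full 1195 kb and 552 kb. So placed too are ATXN1 and SUPT3H, with innermost starts at 461 kb and 568 kb, and DLG2, with its innermost start at 227 kb. The median innermost distance was 461 kb over the 7 members with estimates above -0.25 and 560 kb over 28 with lower estimates. Over 35 tested members the log2 fold change had a Spearman correlation of -0.30 with the distance from the innermost start to the gene end. The deposited levels are summed per gene and do not show which start was used. Any part of start position in these estimates was not tested. Upstream windows of 250 bases, each printed 5′ to 3′ on the strand of its gene, are shown for 3 members as examples, 1 called gene and 2 that did not pass. They are the start of EXOC4 (plus strand, chr7:133252828-133253077), the outermost start of SUPT3H (minus strand, chr6:45377935-45378184) and the innermost start of CAMTA1 (plus strand, chr1:7704486-7704735). Capitals mark the GC box GGGCGG on either strand.
EXOC4: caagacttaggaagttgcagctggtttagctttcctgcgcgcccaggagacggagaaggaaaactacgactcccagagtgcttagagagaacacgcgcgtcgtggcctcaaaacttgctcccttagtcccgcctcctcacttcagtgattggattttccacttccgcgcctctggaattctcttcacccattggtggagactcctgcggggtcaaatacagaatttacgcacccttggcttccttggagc
SUPT3H: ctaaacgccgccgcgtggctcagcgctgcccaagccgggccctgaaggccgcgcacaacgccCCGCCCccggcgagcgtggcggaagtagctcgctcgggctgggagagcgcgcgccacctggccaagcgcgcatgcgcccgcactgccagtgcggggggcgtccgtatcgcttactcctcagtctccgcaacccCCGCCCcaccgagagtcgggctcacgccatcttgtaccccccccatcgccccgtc
CAMTA1: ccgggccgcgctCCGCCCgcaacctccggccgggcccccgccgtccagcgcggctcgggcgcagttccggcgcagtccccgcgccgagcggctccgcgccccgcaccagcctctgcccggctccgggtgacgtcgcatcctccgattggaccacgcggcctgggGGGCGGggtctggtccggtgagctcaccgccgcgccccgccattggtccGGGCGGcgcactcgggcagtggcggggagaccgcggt
The EXOC4 window holds no GC box, that of SUPT3H 2 and that of CAMTA1 3. In the window of the outermost listed start, 25 of 37 members (67.6%) have a GC box, against 42.6% of all 35116 RefSeq windows of this length. Of the 3 called members with a matched start, 1 has a GC box there. The windows of the 37 members also had a higher median content of G and C, 66.4% against 58.0% over all windows. The shares with a GC box were not matched for this content or for level of expression. The full set of windows may also hold more than 1 window per gene, while each member gave 1. The MCAT letters GGAATG, the core recognised by TEAD factors, occur on either strand in 3 of 37 members (PTPRK and TCF4 among them) and 11.9% of all windows. The letters TATAAA occur in 1 member (NAALADL2) and 10.7% of all windows. The letters of these 3 motifs are not contained in one another. A match is a description of letters and not a binding site.

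The lower level of the very long genes was alike in the 3 treated libraries. Measured as log2(TPM + 1) minus the scrambled ASO mean, the median over the 39 tested members was -0.85, -0.84 and -0.84 in MYH7B ASO replicates 2 to 4. In each of these libraries 36 of the 39 members were below the control mean. The scrambled ASO libraries had medians of -0.08, 0.09 and -0.05. The members themselves varied among the controls. Scrambled ASO replicate 2 held the highest control value for 20 of the 39, among them PTPRD, PTPRM and FHIT, and replicate 1 the lowest for 20. Over all tested genes the medians were 0.02, -0.01 and -0.16 in MYH7B ASO replicates 2 to 4, and -0.10 in the reordered replicate 1. The share of all tested genes below the controls in a single library was not counted. In the reordered MYH7B ASO replicate 1 the median over the members was -1.03, and 32 of the 39 members were below every control. DLG2, MAST4 and ATXN1, at 4.81, 9.12 and 13.9 TPM, were above every control in that library. With that library added the same 5 members were called, against 0.967% of all genes called lower in that fit.

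The longer class to which the members belong was then described, to place them by span. Beside the members, 532 tested genes had an annotated span of at least 300 kb. Of these other long genes 67 (12.6%) were called lower and none higher by limma, their median log2 fold change was -0.55, and 88.0% of estimates were below 0. The share called among members, 12.8%, is near that of the other long genes. All 3 MYH7B ASO libraries lay below all 3 scrambled ASO libraries for 50.6% of the other long genes and 64.1% of the tested members. Among tested genes under 300 kb, 1.07% were called lower and the median was -0.03. Without any 1 of the 6 libraries, 18 to 35 other long genes were called, with the lowest count without MYH7B ASO replicate 4. The 3 other long genes with the lowest log2 fold changes among those called were KCNIP4, a potassium channel partner (1220 kb, -2.91), FHOD3, a formin of the sarcomere (482 kb, -2.81), and GPC6, a glypican of the cell surface (1181 kb, -2.74).

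Across all tested genes other than the members, the median log2 fold change was lower in each longer span class. It was 0.09 under 10 kb, 0.03 from 10 to 30 kb, -0.10 from 30 to 100 kb, -0.25 from 100 to 300 kb, -0.55 from 300 to 1000 kb and -0.61 in the 25 genes over 1000 kb. Within the members the Spearman correlation between span and log2 fold change was -0.30 over 39 genes. Over all 15852 tested genes with an annotated span, members included, it was -0.31. These are correlations across genes measured in the same libraries, given as descriptions. PTPRD and DLG2, the longest members, had log2 fold changes of -1.20 and -0.17, while FTO, among the shortest at 457 kb, fell by 1.21. Of 235 genes called lower with an annotated span, 72 (30.6%) spanned at least 300 kb, as did 3.60% of all tested genes. The 29 genes called higher had a median span of 8.43 kb.

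**Figure D3:**
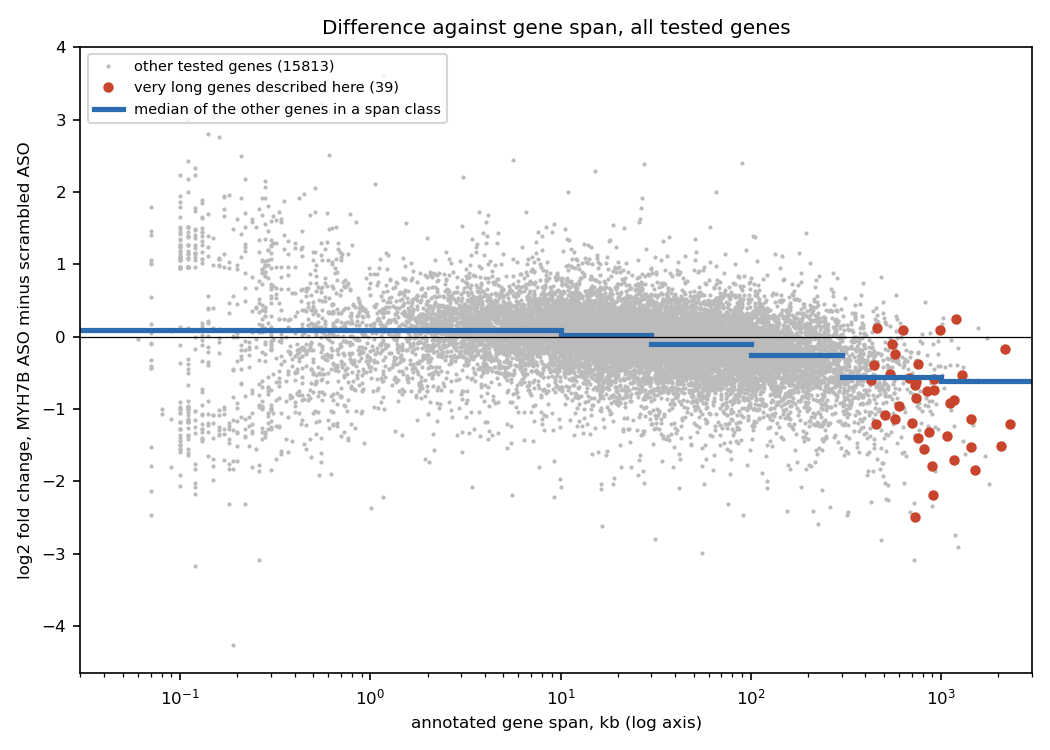
Log2 fold change (MYH7B ASO minus scrambled ASO, 6 libraries) of each tested gene against its annotated span in kb on a log axis. Red points are the 39 tested very long genes, grey points all others, and blue bars the median of the other genes in a span class, which goes from 0.09 under 10 kb to -0.61 over 1000 kb.

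The order of the span classes was also present at either level of expression. For genes averaging 10 TPM or more, members included, the median was 0.12 under 10 kb and -0.52 from 300 to 1000 kb. Below 10 TPM it was 0.05 and -0.57. Every treated library was below every control for 54.6% and 48.8% of genes from 300 to 1000 kb at the 2 levels. Under 10 kb these shares were 4.10% and 5.23%. Only 6 genes over 1000 kb had a mean of at least 10 TPM, PTPRD and TBC1D5 among them, so that class says little.

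**Figure D4:**
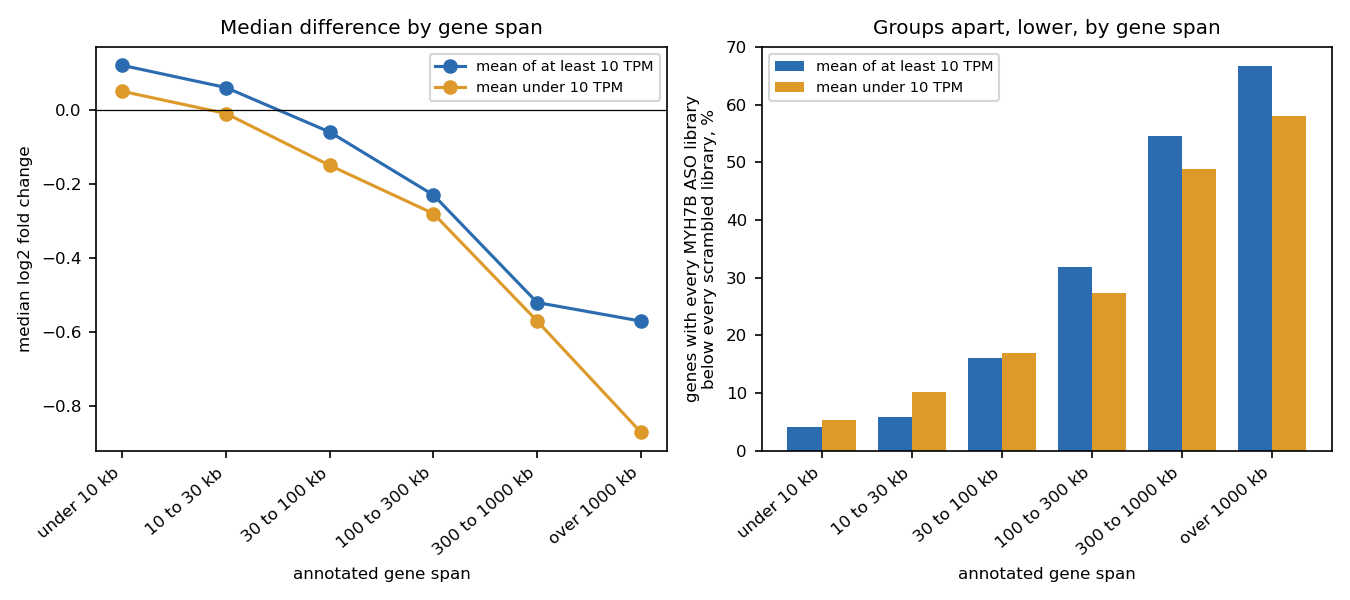
Left, median log2 fold change by class of annotated gene span, for genes averaging 10 TPM or more (blue) and less than 10 TPM (orange). Right, the percent of genes in each class for which all 3 MYH7B ASO libraries lay below all 3 scrambled ASO libraries, which rises from 4.10% and 5.23% under 10 kb to 54.6% and 48.8% from 300 to 1000 kb.

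In the authors' deposited table, made from libraries of the same series and so not independent, 24 of the 41 members were lower at an adjusted p-value under 0.05. Of the genes with an adjusted p-value there, 5.69% were lower and 3.02% higher. The log2 fold changes there are labelled as shrunken, that is, pulled toward 0. Their size is therefore not the same measure as that of the limma values on log2(TPM + 1). The authors' deposited table gave TRAPPC9 a log2 fold change of -2.45 (adjusted p-value 4.42e-38) and EXOC4 one of -1.37 (7.13e-12). PRKCA, CDH13 and MAGI2, which did not pass in limma, had -1.39, -1.37 and -1.28 in the authors' deposited table, and their adjusted p-values were 8.70e-08, 2.78e-07 and 5.86e-06. ZBTB20 was the 1 member higher there, with 0.74 and an adjusted p-value of 0.0320 in the authors' deposited table. CAMTA1 (0.14, 0.717), PTPRK (-0.05, 0.901) and DLG2 (-0.02, 0.978) did not pass in the authors' deposited table.

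Markers of other cell types were measured in the same libraries, since the cultures may hold more than heart muscle cells. Fibroblast markers summed to 2881 to 5173 TPM with the scrambled ASO and 1344 to 2071 TPM with the MYH7B ASO, and LUM and COL1A2 of 8 were called lower. Smooth muscle and pericyte markers summed to 1006 to 1412 TPM and 592 to 792 TPM, with MYH11 of 6 called lower. The 10 cardiomyocyte markers summed to 4699.9 to 6039 TPM and 4046 to 6277 TPM, with none called. Endothelial (17.5 to 21.8 against 11.5 to 17.2 TPM), epicardial (289.8 to 352 against 220.2 to 342 TPM) and pluripotent markers (3.04 to 3.73 against 2.51 to 3.47 TPM) had none called, among 2 tested of 5, 4 of 4 and 2 of 4. Neuronal markers summed to 25.7 to 35.7 and 20.0 to 30.8 TPM, with STMN2 called lower among 4 tested of 5. Endoderm and immune markers, of which none reached the level for testing, stayed at or below 1.84 TPM in sum, and PTPRC was listed at 0 in all 6 libraries. In bulk RNA, fewer cells of a type and less RNA per cell cannot be told apart. The part of the fibroblast and smooth muscle markers in the level of the very long genes was not tested.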

How the data were processed

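RNA from 7 libraries was measured by RNA-seq of polyadenylated RNA extracted with Trizol, per the labels' protocols. The authors deposited gene expression as TPM, with column sums of 1000000, so sequencing depth is unknown. The authors also deposited a table of their comparison with mean normalized counts (a signal per gene), log2 fold changes, a test score and p-values, per the file headers. The submitters' processing notes list GRCh38.p13 and DESeq2, and the quantifier, annotation and strand setting are not given in the sources used here.

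The column of MYH7B ASO replicate 1 fills 58721 positions, as many as GENCODE 29 basic has genes. Reordered by sorted identifier, its median correlation with the other libraries went from 0.408 to 0.955, against 0.959 to 0.979 among the others. It was kept out of the main comparison and used as an alternative. No per-sample column was left unmapped.

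From the TPM values, log2(TPM + 1) was tested with limma 3.58.1 in R 4.3.3 on 3 against 3 libraries, for the 15988 genes averaging 1 TPM or more, with Benjamini-Hochberg adjustment and a threshold of 0.05. An exact permutation test of 3 against 3 cannot go below p = 0.1, so none was used. The procedure was tested on simulated data. Spans and exons come from GENCODE 29, starts and upstream sequences from RefSeq (GRCh38.p14). Alternatives changed the pseudocount, the minimum level, the scaling, the libraries and a replicate block. Tested members are named with their values, except 1 that is not reported here by name but stays in the counts and medians, and of other long genes the 3 called lower with the largest change. The members and lists were chosen with earlier results of these data known.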

Additional observations from a re-analysis of the deposited data

Results flagged for a closer look

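In the MYH7B ASO group of 4 libraries, replicate 1 included after reordering, each of the 41 very long genes was checked by Dixon's gap ratio on log2(TPM + 1) for a single library lying apart from the other 3. Chance gives about 1 in 20 groups, and 4 of the 41 had such a library. PARD3B had 0.313 TPM in replicate 2, against 1.22 to 1.45 TPM in the others. PARD3, its paralog, had 10.8 TPM in the same library, against 7.13 to 7.61 TPM. SMYD3 had 7.15 TPM in replicate 3, against 4.39 to 4.64 TPM. NAALADL2 had 0.842 TPM in replicate 1, against 0.189 to 0.200 TPM. Taken on TPM itself, a scale tried after the data were seen, the ratio again picked 4 of the 41, with MAST4 (9.12 TPM in replicate 1, against 1.78 to 2.57 TPM) in place of PARD3B.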

How the results depend on the processing

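The median log2 fold change of the very long genes stayed below 0 under all 16 alternatives. It was -1.07 with a pseudocount of 0.1, -0.49 with a pseudocount of 5, -0.71 with a minimum of 5 TPM, and -0.96 to -0.83 with each library left out. With no minimum, 40 genes in all (265 in the main comparison), 3 very long genes (5) and 12 other long genes (67) were called. With 7 libraries 170 genes were called. Leaving out 1 library gave 53 to 149 genes in all, 3 to 4 very long genes and 18 to 35 other long genes. The cause of these lower counts was not tested. Median-ratio rescaling moved the split of called genes from 236 lower and 29 higher to 213 lower and 58 higher (89.1% to 78.6% lower), and the median of all genes from -0.04 to 0.01.

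MYH7B was below 0 throughout, with adjusted p of 0.0779 (log2 fold change -1.85) with no minimum and 0.0525 (-2.30) with 7 libraries, and -2.04 to -1.66 with a library left out (0.0618 at -1.79 without MYH7B ASO replicate 4). Signs turned for CAMTA1 (-0.01) and FOXP1 (-0.05) with 7 libraries, AUTS2 (-0.06) without scrambled ASO replicate 1, PTPRK (0.01) without scrambled ASO replicate 2, FOXP1 (-0.13) without scrambled ASO replicate 3, DLG2 (0.17) without MYH7B ASO replicate 2 and ATXN1 (-0.07) without MYH7B ASO replicate 4. With a library left out, the other ends of these ranges were -0.50 for DLG2, -0.24 for PTPRK, 0.31 for FOXP1, 0.26 for ATXN1 and 0.55 for AUTS2. CDH13 was called (-2.03, adjusted p = 0.0456) with mitochondrial genes removed, and NFIA (adjusted p = 0.0440) with a minimum of 5 TPM. Depth is unknown, so its limits cannot be given.

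Whether replicate numbers pair the libraries could not be settled. Same-numbered libraries had correlations of deviations of 0.076 and 0.110 by title and -0.073 and -0.039 by description over 6 libraries. Over 7 libraries these were 0.019, 0.142 and 0.021 by title and 0.019, 0.021 and -0.118 by description. Correlations of differently numbered libraries were not set beside them. With the replicate block by title, by description, or by title over 7 libraries (chosen after seeing the data), 0 genes in all, 0 very long genes and 0 other long genes were called by limma, while 1718, 1096 and 1773 genes had an unadjusted p below 0.05. Over 6 libraries only numbers 2 and 3 by title, and 3 and 4 by description, occur in both groups. These fits rest on the libraries that share a number and leave little to estimate the spread. The lack of calls therefore cannot show whether a difference is absent. The median of the very long genes was -1.0 by title and -0.94 by description. MYH7B had log2 fold changes of -1.92, -2.17 and -2.41 in these replicate block fits, with adjusted p of 0.331, 0.720 and 0.161. Signs turned under the title block for ATXN1 (-0.16) and AUTS2 (-0.21), under the description block for GPHN (0.01) and DLG2 (0.23), and under the title block over 7 libraries for CAMTA1 (-0.01), FOXP1 (-0.12) and AUTS2 (-0.18).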

Other observations

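The length of the message can be set beside the length of the gene, a contrast chosen after the data were seen. Among tested genes under 100 kb, the median log2 fold change was 0.05 with less than 2 kb of exons (2919 genes) and -0.12 with over 10 kb (676 genes). Among genes of at least 300 kb there was no such order. It was -1.23 with less than 2 kb (only 4 genes), -0.48 with 2 to 4 kb (38 genes), -0.57 with 4 to 6 kb (70 genes), -0.53 with 6 to 10 kb (195 genes) and -0.60 with over 10 kb (264 genes). Among the 39 tested very long genes the Spearman correlation of the log2 fold change with exonic length was 0.29, opposite in sign to that over 15852 genes (-0.21). Over 10 kb of exons was annotated for 24 of the 39, and for 1647 of the 15852. These are descriptions across genes of the same libraries.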
